A study of Mus musculus with 21 samples.

Results

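Peaks of trimethylated lysine 36 of histone H3 (H3K36me3) were compared between day 5 and day 0 of differentiation in the 2 Setd2 knockout (KO) lines of C2C12, a mouse myoblast line that forms myotubes in culture. The comparison used 4 of the 20 peak lists analysed here, chosen by their labels: day 0 and day 5 in control medium of KO line 1, and the same of KO line 2. Each line had 1 library a day, so a line is paired with itself and a value within a line has no replicate check. Wild-type (WT) C2C12 cells of the same 2 days, also in control medium at day 5 and with 2 replicate libraries a day, served as the reference. The gene test within WT took its spread from all WT libraries, also those of other conditions. The remaining lists are of day 1 in control medium and of day 1 and day 5 under methionine restriction, in WT and both KO lines. Some of their values are given beside the main ones. The labels do not say how the lines were made or whether each is 1 clone, nor what the culture media held. Chromatin of Drosophila was added to each immunoprecipitation, per the labels' protocols, and no scaling by it was applied here. The share of a gene body that peaks fill, in percent, is called its cover here, and 19300 protein-coding genes with a body of 2 kb or more were measured. A change of cover is given in points, day 5 minus day 0. A gene that rose by at least 20 points is said to gain, and one that fell by at least 20 points to lose. The depth of the libraries is unknown, so a list with few peaks cannot be told apart from a library with few reads, and cover says where peaks were called, not how much of the mark was there.

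SETD2 travels with elongating RNA polymerase II and is the main enzyme that trimethylates H3K36, so the mark builds up over the bodies of transcribed genes toward their 3′ ends and is low at active promoters. Proteins that read it act in splicing, DNA methylation and repair. In muscle cells, differentiation closes the genes of cell division and opens those of the sarcomere.

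The Setd2 gene itself was covered to 3.16% at day 0 and 24.0% at day 5 in line 1, and to 0% on both days in line 2. The change in line 1 was 6.13 points at a −log10 q of at least 3 and -0.729 at matched length. In WT it was covered to 78.1% and 65.6% at day 0 and to 82.8% and 78.4% at day 5. Cover of the gene does not show whether it is intact, so it does not check the labels. Of 5 myoblast markers (Myod1, Myf5, Pax7, Cdh15 and Des), all had peaks in both WT libraries at day 0 and none had peaks in either KO line at day 0. At day 5, 2 of the 5 had peaks in line 1 (Des at 49.6% and Cdh15, with a summed cover of 88.7 points) and none in line 2. Of 9 measured myotube markers, 6 had peaks in line 1 at day 5, none in line 2 and all 9 in both WT libraries.

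Both KO lists grew between day 0 and day 5. In line 1 the number of peaks rose from 23529 to 64530 and the covered length from 17.7 to 74.1 Mb, a 4.19-fold increase. In line 2 the number rose from 3625 to 11854 and the covered length from 1.88 to 5.69 Mb, a 3.02-fold increase. The WT libraries covered 178.6 and 159.2 Mb at day 0 and 183.5 and 170.9 Mb at day 5. Line 1 thus stayed under every WT library on both days and above line 2, and the WT lengths overlapped between days. The mean log2 change was 1.83 in the KO lines and 0.07 in WT. Swapping the days within each line gives only 4 arrangements, so the exact permutation test (two-sided) gave p = 0.5, the smallest that 2 lines allow. The difference from the WT change was 1.76 (exact permutation test, two-sided, p = 0.417, adjusted p = 0.5 over 4 tests, where the smallest possible raw p was 0.0833). The lines differed in where these peaks lay. In line 1, 80.8% of covered bases at day 0 and 78.9% at day 5 were inside WT peaks of the same day, and the share of WT territory covered went from 7.19% to 27.9%. In line 2, 3.804% of covered bases at day 0 and 3.46% at day 5 were inside WT peaks. Gene bodies of all biotypes held 87.5% of covered bases at day 0 and 90.1% at day 5 in line 1, and 33.8% and 38.2% in line 2. In the WT libraries they held 94.7% to 95.5%, and they make up 46.1% of the span of the chromosomes. The mean KO rise of 3.51 points had p = 0.5 (exact permutation test, two-sided), the smallest possible. Peaks of day 5 held 74.7% of the day 0 bases of line 1 and 29.6% of those of line 2. At day 5 the lists of the lines shared 1.19 Mb, which was 1.61% of line 1 and 20.9% of line 2.

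**Figure D1:**
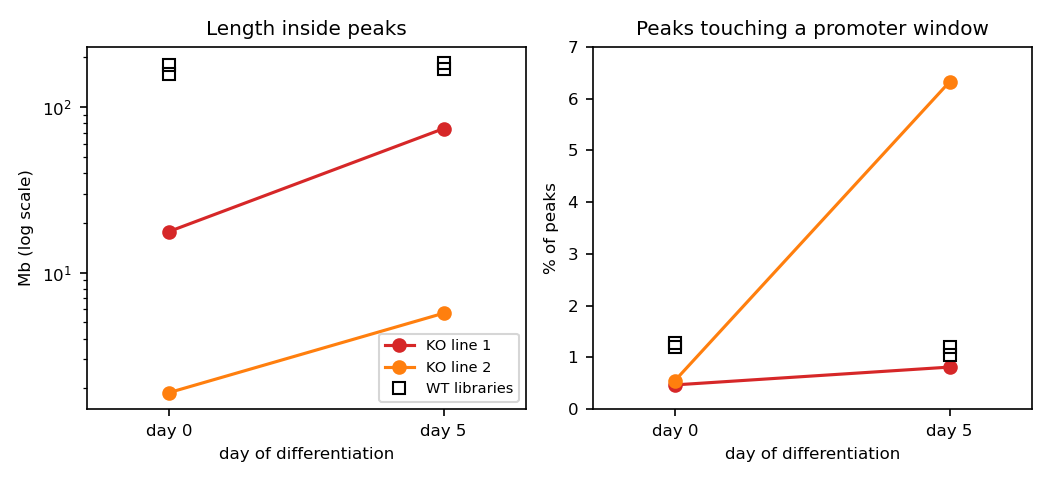
Covered length in Mb on a log scale (left) and percent of peaks that touch a promoter window (right) at day 0 and day 5; each point is 1 library, lines join the 2 libraries of a KO line, and open squares are the 4 WT libraries. Both KO lines rise in length and stay under WT, and line 2 alone reaches 6.33% of peaks at promoters.

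In line 1, cover spread over the bodies of genes that are marked in WT. Of 19300 genes, 3021 gained (15.7%) and 41 lost (0.212%) by day 5. Genes covered to at least 50% rose from 204 to 1621. Of the genes that gained, 708 had no cover at day 0. The share that gained followed the WT cover of day 5: 52 of 8526 genes with none (0.610%), 496 of 2033 at 40 to 60% cover (24.4%), and 1077 of 1476 at 80% or more (73.0%). By the cover of the line itself at day 0, 4.995% of genes at 0, 73.7% of those between 20 and 50% and 45.6% of those at 50% or more gained, a relation that shares its day 0 library with the gain. In the day 1 library of line 1 the genes that later gained had a median cover of 2.65%, against 6.06% at day 0 and 49.3% at day 5. With the day 5 list cut to the length of the day 0 list by the authors' fold enrichment, 702 genes gained and 269 lost. With only peaks of a −log10 q of at least 3, 1847 gained.

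**Figure D2:**
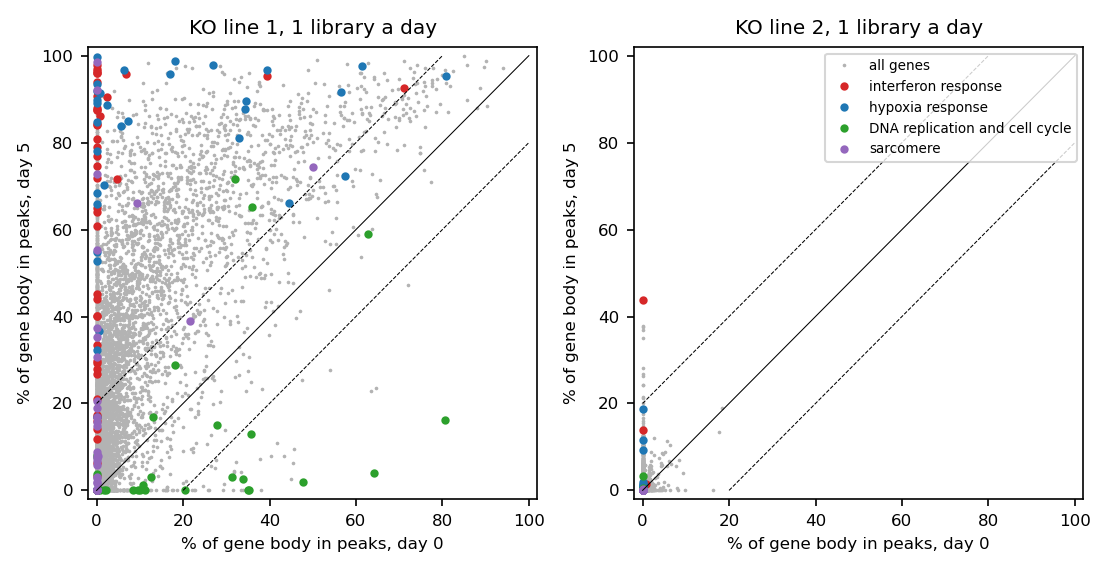
Percent of each gene body inside peaks at day 0 (x axis) and day 5 (y axis) in KO line 1 (left) and KO line 2 (right), 1 point per gene of 19300; the solid line marks no change, the dashed lines a change of 20 points, and coloured points are genes of 4 lists. In line 1, 36 of 53 interferon genes and 29 of 38 hypoxia genes lie above the upper dashed line and 9 of 30 replication genes below the lower one, while in line 2 only 13 genes lie above the upper dashed line.

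Within genes, the new cover of line 1 lay toward the 3′ side, as the cover of WT did. Over 2435 genes that gained and have a strand in the annotation, mean cover at day 5 was 11.8% in the first of 10 equal parts of the body, 69.7% in the eighth and 51.8% in the last. At day 0 the same genes had 0.565%, 19.5% and 14.6% there. In 1 WT library of day 0 these genes rose from 14.2% in the first part to 89.5% in the ninth.

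**Figure D3:**
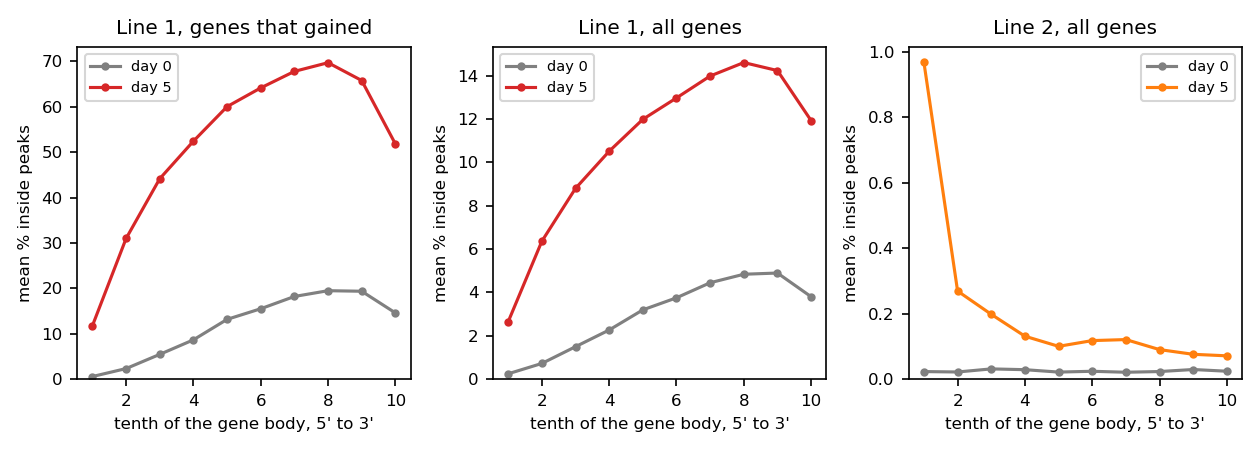
Mean percent inside peaks of 10 equal parts of the gene body, from 5′ to 3′, at day 0 (grey) and day 5 (coloured), for the 2435 genes that gained in line 1, and for 15327 genes with a strand in line 1 and line 2; 1 library per curve, and the y axes differ. Line 1 is highest in the eighth or the ninth part on both days, and line 2 at day 5 is highest in the first part.

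Interferon-response genes were among those with the largest gains in line 1. These genes encode antiviral proteins and are switched on by transcription factors that bind interferon-stimulated response elements in their promoters. Promoters of Ifit1 and Bst2, both without cover in line 1 at day 0 and near full cover at day 5, are shown because they hold such elements. The 250 bases before the start are printed 5′ to 3′ from RefSeq (GRCm38.p6) for Ifit1 (chr19:34640639-34640888, plus strand) and Bst2 (chr8:71537473-71537722, minus strand), with matches to GAAANNGAA on either strand in capitals, where neighbouring matches overlap.
Ifit1: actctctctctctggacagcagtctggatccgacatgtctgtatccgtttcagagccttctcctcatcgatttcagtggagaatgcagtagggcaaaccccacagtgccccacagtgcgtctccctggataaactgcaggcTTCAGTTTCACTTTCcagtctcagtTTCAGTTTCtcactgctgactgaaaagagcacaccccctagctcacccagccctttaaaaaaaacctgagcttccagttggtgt
Bst2: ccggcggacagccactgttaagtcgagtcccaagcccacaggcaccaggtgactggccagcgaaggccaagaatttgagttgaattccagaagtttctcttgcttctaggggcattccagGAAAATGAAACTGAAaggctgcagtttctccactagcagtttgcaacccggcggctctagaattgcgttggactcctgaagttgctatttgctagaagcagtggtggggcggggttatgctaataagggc
Ifit1 has 3 matches and Bst2 has 2. Over the 300-base windows (250 before to 50 after the start) of 44 interferon genes with such a window, 24 of 54 windows held this motif (44.4%), against 2812 of all 32851 (8.56%). Of the windows of all genes that gained in line 1, 224 of 3075 held it (7.28%), so it was not more frequent in the gained genes as a whole. A match is a description of the letters and not a binding site.

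Oasl2, an antiviral member of the oligoadenylate synthetase-like family, had 0% cover at day 0 and 98.0% at day 5 in line 1, and 0% in line 2 and in all 4 WT libraries. Ifi44, an interferon-induced protein, went from 0% to 96.8% in line 1 and was likewise at 0% in line 2 and WT. Ifit1, which binds viral RNA, went from 0% to 90.8% and was at 0% in the WT libraries, and its whole body overlaps another annotated gene. Stat2, a transcription factor of the pathway, went from 0% to 96.0% in line 1 and lay between 72.1% and 80.1% in all WT libraries. Trim25, a ubiquitin ligase of RNA sensing, went from 0% to 94.0%. Bst2, which tethers budding viruses, went from 0% to 88.1%, and Irf9, a transcription factor of the pathway, from 0% to 81.0%. In a list of 56 interferon genes, made after the values were seen and so without a test, 36 of 53 measured genes gained and 0 lost, with a median change of 44.0 points, while 15.7% of all genes gained and their median change was 0. The median change of the list in WT was 0 points. In line 2 only Ly6e of this list gained. Not all members moved: Oas1a, Oas2, Oas3 and Herc6 had no cover on either day in line 1. At the length-matched setting 23 of the 53 still gained, beside 702 of all 19300 genes. Ifi207, Mndal and the Gbp genes belong to families of near-identical copies, so their cover is uncertain.

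Of the 3021 genes that gained in line 1, 57 had a mean WT cover under 5% on both days, a class defined after the values were seen. They are 0.620% of the 9198 genes with such WT cover. Of the 57, 17 were in the interferon list, which holds 32 genes of that class and was made after these gains were seen, with Oasl2, Ifi44, Ifi207, Ifit1, Bst2, Lgals3bp and Gbp7 the 7 largest gains. In the day 1 library of line 1 the 57 genes had a median cover of 0%, and in the day 5 library under methionine restriction it was 31.6%. Nos2, the inducible nitric oxide synthase, went from 0% to 93.7% in line 1, with 0% in both WT libraries at day 0 and 9.12% and 1.27% at day 5.

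Genes of the hypoxia response, targets of the oxygen-sensitive HIF factors, gained in line 1 too. Promoters of Bnip3 and Egln3, both among the largest gains, are shown because they hold the HIF core ACGTG. The 250 bases before the start, from RefSeq (GRCm38.p6), are those of Bnip3 (chr7:138909507-138909756, minus strand) and Egln3 (chr12:54203875-54204124, minus strand), with matches to ACGTG on either strand in capitals. In Bnip3 the palindrome cacgtg counts as 2 overlapping matches, and Egln3 has 1.
Bnip3: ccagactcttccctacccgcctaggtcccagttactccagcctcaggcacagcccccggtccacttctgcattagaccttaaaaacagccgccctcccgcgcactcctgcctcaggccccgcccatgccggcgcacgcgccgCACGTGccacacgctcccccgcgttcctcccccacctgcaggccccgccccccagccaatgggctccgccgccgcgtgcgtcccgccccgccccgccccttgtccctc
Egln3: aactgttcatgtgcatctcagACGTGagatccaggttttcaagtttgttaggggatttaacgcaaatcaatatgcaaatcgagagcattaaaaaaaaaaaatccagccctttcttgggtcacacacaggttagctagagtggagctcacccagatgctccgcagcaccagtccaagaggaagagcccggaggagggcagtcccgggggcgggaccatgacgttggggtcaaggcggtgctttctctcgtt
Over 34 hypoxia genes with a window, 27 of 50 windows held ACGTG on either strand (54%), against 6447 of all 32851 (19.6%), 28.8% of the windows of genes that gained in line 1 and 14 of 34 windows of ATF4 target genes (41.2%).

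Bnip3, a mitochondrial mitophagy receptor, had 0% cover at day 0, 2.43% at day 1 and 99.7% at day 5 in line 1. In WT it had 30.9% and 18.8% at day 0 and 85.8% and 88.9% at day 5, so it was higher at day 5 in both, from a lower level in line 1. Egln3, a prolyl hydroxylase that senses oxygen, went from 0% to 93.5% in line 1, against 14.1% and 9.57% at day 0 and 87.2% and 75.6% at day 5 in WT. Ero1a, an oxidase of the endoplasmic reticulum, went from 0.772% to 91.5%, and Kdm3a, a histone demethylase, from 6.44% to 96.6%. P4ha2, a collagen prolyl hydroxylase, went from 0% to 89.2%, and Fam162a from 0% to 89.9%. Hk2, a hexokinase of glycolysis, went from 2.30% to 88.7%. Of 38 genes in this list, made after the values were seen, 29 gained and 0 lost (15.7% and 0.212% of all genes), with a median change of 56.1 points against 13.3 in WT, where limma called 17 of 33 tested members higher (12.2% of all tested genes were called higher). In line 2, Bnip3 reached 1.35% at day 5, and the largest cover of any member was 18.8%, at Adm. At the length-matched setting 27 of the 38 gained, beside 702 of all 19300 genes.

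Targets of ATF4, the transcription factor of the amino acid and stress response, gained in line 1 as well. Chac1, which breaks down glutathione, went from 0% to 90.6% and Ddit4, an inhibitor of mTORC1 that is also in the hypoxia list, from 0% to 91.9%. Lonp1, a mitochondrial protease, went from 0% to 90.8%, and Trib3, a pseudokinase, from 0% to 86.8%. In WT, Chac1 had 75.6% and 74.8% at day 0 and 70.9% at day 5 in both libraries. Trib3 had 50.1% and 66.9% in WT at day 0 and 38.5% and 11.3% at day 5, lower by limma (adjusted p = 0.027). Of 36 measured genes of this list, also made after the values were seen, 23 gained and 0 lost (15.7% of all genes gained), with a median change of 48.1 points, while the WT median change was -4.16. At the length-matched setting 19 of the 36 gained, beside 702 of all 19300 genes. The day 5 library under methionine restriction of line 1 had a median of 7.65% over this list, against 62.4% in control medium, with 1 library each. The restricted list was shorter as a whole, with 45.8 Mb against 74.1 Mb and 1636 genes at 20% cover or more against 3516.

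Muscle genes split in line 1. Tnnc1, the slow troponin C, went from 0% to 98.6% in line 1, against 36.9% and 57.8% at day 0 and 99.5% and 61.9% at day 5 in WT. Its change in line 1 was 0 points with peak lists cut to matched length. Ttn, the giant spring of the sarcomere, went from 0% to 92.1%, against 81.5% and 61.2%, then 96.9% and 96.6%, in WT. Myom2, an M-band protein, went from 0% to 72.8% and Neb, nebulin of the thin filament, from 0% to 55.4%. WT had under 1% at day 0 at both, and 84.9% and 84.5% (Myom2) and 95.7% and 95.1% (Neb) at day 5. Myog, a master regulator of differentiation, and Myh3, the embryonic myosin heavy chain, had 0% in both KO lines on both days. In WT both were at 0% at day 0, and at day 5 Myog had 91.7% and 93.4% and Myh3 96.5% and 89.6%. Of 33 sarcomere genes 10 gained in line 1 and 0 lost, with a median change of 7.85 points against 61.5 in WT, where limma called 27 of 31 tested genes higher. Over all genes, 15.7% gained in line 1 and 12.2% were called higher in WT. Of 16 myogenic regulators 9 gained, with a median change of 26.4 points against 12.9 in WT. They included Dll1, a Notch ligand, from 0% to 73.4%, and Mymk, needed for myoblast fusion, from 0% to 44.6%. Myod1 stayed at 0% in line 1, while WT had 50.1% to 78.4%. Of 17 genes of calcium handling 7 gained, with a median change of 17.4 points against 45.8 in WT, led by Atp2a2, a calcium pump, from 33.4% to 95.2%. Of 22 genes of muscle metabolism and cytoskeleton 7 gained, with a median change of 1.23 points against 14.2 in WT. At the length-matched setting the gains of these lists fell to 4 of 33 sarcomere genes, 1 of 16 myogenic regulators, 1 of 17 calcium handling genes and 3 of 22 genes of metabolism and cytoskeleton, beside 702 of all 19300 genes. In line 2 no gene of these 4 lists gained.

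Losses in line 1 included genes of cell division and of sterol synthesis. Top2a, the DNA topoisomerase of mitosis, went from 80.6% at day 0 to 16.3% at day 5, and was at 85.7% at day 1. In WT it went from 96.9% and 95.8% to 75.0% and 64.4%. Cdk1, the kinase that drives mitosis, went from 64.2% to 4.06%, and Mki67, a marker of dividing cells, from 47.7% to 1.995%. At a −log10 q of at least 3 the Cdk1 change was -12.0 points, no longer a loss by the rule, and that of Mki67 was -26.4. Atad2, a chromatin ATPase, went from 64.7% to 23.7%. Of 30 replication and cell cycle genes 9 lost (0.212% of all genes did) and 2 gained, Mcm7 and Mcm6, with a median change of -8.86 points against -41.9 in WT, where limma called 23 of 28 tested genes lower (15.6% of all tested). Csf2rb, a cytokine receptor subunit, went from 45.0% to 2.64%, and was at 0% in line 1 at day 1 and in all 4 WT libraries. Its change was -14.6 points at a −log10 q of at least 3. Of 25 genes of cholesterol synthesis and uptake, a list made after the values were seen, 6 lost and 1 gained. Insig1, a sterol sensor, went from 63.4% to 22.9%, Fdps, an enzyme of the mevalonate pathway, from 37.96% to 0%, and Cyp51, a sterol demethylase, from 43.4% to 8.02%. WT cover of these 3 genes stayed between 81.4% and 93.1% on both days. The one that gained was Srebf2, the factor that switches this pathway on, from 29.6% to 51.5%. At the length-matched setting 13 of the 25 lost, beside 269 of all 19300 genes.

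Genes that many cells keep on also gained. The counts that follow stand against 15.7% of all genes. Of 30 splicing factor genes 23 gained and 0 lost, with a median change of 31.6 points against -1.80 in WT, led by Sf3b1, a core spliceosome subunit, from 22.5% to 85.0%. Of 28 genes of ribosomal proteins and translation 18 gained, with a median change of 29.9 points, led by Rpl8 from 29.5% to 83.4%. Ribosomal protein genes have many pseudogene copies, so their cover is uncertain. Of 22 genes that write, erase or read H3K36 methylation 10 gained, among them Setd5 from 10.9% to 71.7% and Kdm4a, a demethylase, from 18.8% to 71.1%. Of 31 extracellular matrix genes 14 gained, among them Lamb1, a laminin chain, from 6.11% to 85.9%. Col6a1, a collagen VI chain, went from 26.9% to 91.6%, while WT had 9.24% and 19.6% at day 0 and 44.7% and 51.4% at day 5. With peak lists cut to matched length, the gains fell to 3 of 31 matrix genes and to 2 of 22 H3K36 genes, of which 2 others lost, and were 17 of 30 splicing and 15 of 28 ribosomal and translation genes, beside 702 gained and 269 lost of all 19300 genes. Among genes that mark other cell types, 0 of 8 adipocyte genes gained, 1 of 7 bone and cartilage genes (Sox9), 3 of 8 smooth muscle genes (Smtn, Des and Acta2) and 0 of 10 genes of neurons, endothelium and blood. Of the defining markers with a body of 2 kb or more, the summed cover in line 1 went from 0.357 to 3.78 points over 6 of adipocytes, from 29.3 to 89.3 over 6 of bone and cartilage (Sox9 and Runx2, the others at 0), from 46.6 to 75.4 over 5 of smooth muscle (Acta2, the others at 0) and from 0.842 to 4.49 over 8 of neurons, endothelium and blood. Their part in the gains was not tested.

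**Figure D4:**
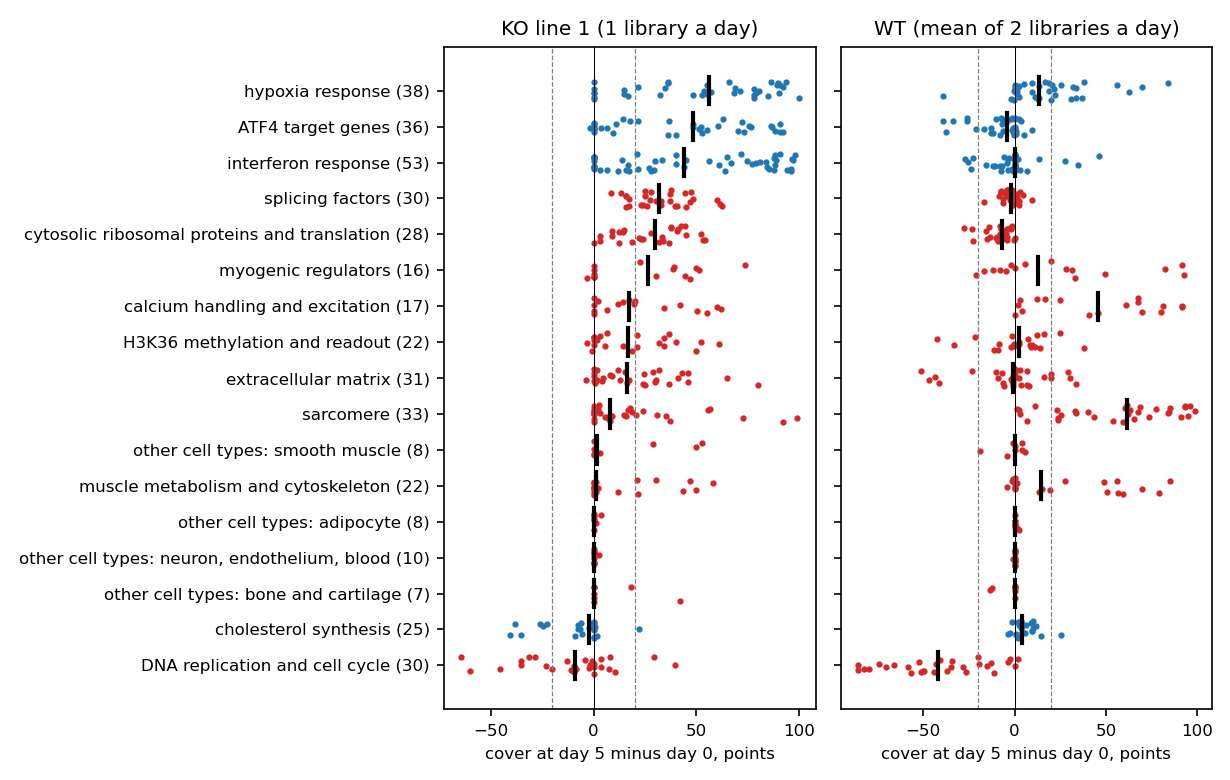
Change of cover from day 0 to day 5 for each gene (points) of 17 lists in KO line 1 (left, 1 library a day) and WT (right, mean of 2 libraries a day); black bars are medians, blue lists were made after single genes of this comparison had been seen, red lists are the others, the number measured is in brackets, and dashed lines mark 20 points. Hypoxia, ATF4 and interferon genes have the highest medians in line 1, sarcomere genes in WT.

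Line 2 gained at few genes, and the share of its peaks at gene starts was higher at day 5 than at day 0, though most of its peaks lay elsewhere on both days. Genes with any cover rose from 482 to 2224, but 13 gained (0.0674%) and 0 lost, and none reached 50%. Ly6e, an interferon-induced membrane protein, went from 0% to 43.8% in line 2 and from 39.5% to 95.4% in line 1. Jund, an AP-1 transcription factor, went from 0% to 37.7% in line 2 and was at 0% in line 1 on both days. Gdf15, a stress cytokine, went from 0% to 37.0%, and Pcgf1, a Polycomb subunit, from 0% to 37.5%. Rps16, a ribosomal protein gene, went from 0% to 35.0% in line 2 and to 79.5% in line 1. The other 8, between 20.1% and 28.1% at day 5, were Tuba1b, Aprt, Ifitm2, Ocel1, Gm6958, Hspa2, 1700065D16Rik and Pard6a. All 13 are shorter than 5 kb, no gene of at least 10 kb gained, and the median width of a peak in this list was 393 bases. Without the first 1 kb of each body, an alternative chosen after seeing the data, 7 genes gained. At a −log10 q of at least 3 the change of 12 of the 13 was 0 and only Ocel1 still gained, and at matched length the change of 12 was 0 and only Gm6958 still gained. The largest losses in line 2, 16.3 points at 2210010C04Rik and 9.79 points at Rac3, stayed under 20 points.

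Of the gene cover of line 2, 17.4% lay in the first 1 kb of the body at day 5, against 1.35% at day 0. An even spread over the bodies would give 1.88%, and the 4 WT libraries had 0.154% to 0.261%. Mean cover in line 2 at day 5 was 0.968% in the first of the 10 parts of the body and 0.0711% in the last, while at day 0 it was 0.0230% and 0.0240%. The promoter windows that a line 2 peak touched rose from 21 to 989. In percent of peaks this was 0.552% at day 0, 0.710% at day 1 and 6.33% at day 5, with 0.787% (1 of 127 peaks) in the restricted day 1 and 0.447% in the restricted day 5 library of the same line. Line 1 had 0.468% and 0.812%, and the WT libraries lay between 1.05% and 1.29%. At a −log10 q of at least 3, line 2 touched 4 windows at day 0 (3 of 358 peaks) and 138 at day 5 (110 of 631 peaks). With peaks of at least 1 kb it touched 1 window at day 0 and 20 at day 5. Of the 989 windows, 10 were also touched in line 2 at day 0, 43 in line 1 at day 5 (4.35%) and 26 in either WT library of day 5 (2.63%). Of all windows, line 1 at day 5 touched 1.80%. The WT libraries of day 5, each counted alone, touched 3.54% and 3.11%, so the share for either of them is at least 3.54%. Within 1 kb of a gene start lay 1.38% of line 2 peaks at day 0, 1.51% at day 1 and 8.96% at day 5, with 4.72% (6 of 127 peaks) in the restricted day 1 and 1.15% in the restricted day 5 library. The day 5 values of line 2 in control medium rest on 1 library.

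The windows touched in line 2 at day 5 were rich in CG, the dinucleotide that clusters in the promoters of widely expressed genes. Their median was 25 CG per 300 bases and a GC content of 63%, against 7 CG and 52.7% over all 32851 windows. Windows touched in line 1 at day 5 had a median of 4 CG, and those touched in WT libraries 5. The 748 protein-coding genes behind the line 2 windows had a median WT cover of 55.5% at day 5, against 5.29% over all genes with a window. As examples, the 250 bases before the start are printed for 3 genes among the 20 with the largest positive change in line 2, of which only Aprt passed 20 points, whose windows were touched at day 5 and not at day 0, from RefSeq (GRCm38.p6), with CG in capitals: Dolk (chr2:30286355-30286604, minus strand), Aprt (chr8:122576908-122577157, minus strand) and Sephs2 (chr7:127274060-127274309, minus strand).
Dolk: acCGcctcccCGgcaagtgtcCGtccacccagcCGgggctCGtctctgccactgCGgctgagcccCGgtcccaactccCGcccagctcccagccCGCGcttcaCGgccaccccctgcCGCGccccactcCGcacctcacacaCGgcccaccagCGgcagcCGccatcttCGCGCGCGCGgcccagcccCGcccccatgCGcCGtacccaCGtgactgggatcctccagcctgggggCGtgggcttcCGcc
Aprt: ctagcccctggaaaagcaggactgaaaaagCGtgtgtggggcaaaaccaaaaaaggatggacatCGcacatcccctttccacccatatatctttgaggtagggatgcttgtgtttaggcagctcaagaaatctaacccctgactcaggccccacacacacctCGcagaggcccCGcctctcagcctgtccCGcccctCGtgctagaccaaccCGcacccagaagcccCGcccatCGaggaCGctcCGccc
Sephs2: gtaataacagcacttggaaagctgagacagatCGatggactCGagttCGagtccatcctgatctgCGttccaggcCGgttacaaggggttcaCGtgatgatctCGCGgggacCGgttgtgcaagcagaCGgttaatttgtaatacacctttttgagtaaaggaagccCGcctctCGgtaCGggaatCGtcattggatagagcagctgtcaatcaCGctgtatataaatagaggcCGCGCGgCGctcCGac
Dolk, an enzyme of glycosylation, went from 0% to 19.1% in line 2, Aprt, an enzyme of adenine salvage, from 0% to 26.9%, and Sephs2, an enzyme of selenium metabolism, from 0% to 15.4%. In line 1, Dolk and Sephs2 were at 0% on both days and Aprt went from 0% to 43.2%. The Bnip3 promoter printed above was also touched in line 2 at day 5, and has 27 CG in its window.

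Line 2 had 13 gains to share. Of these, 4 were also gains in line 1, which is 30.8% of those of line 2 and 0.132% of those of line 1, beside 15.7% of all genes that gained in line 1. These were Ly6e, Rps16, Tuba1b and Aprt, and in line 2 the change of each was 0 at a −log10 q of at least 3 and at matched length, so that no shared gain was left at either setting. By the smaller of the 2 changes the next were Ifitm2, with 19.01 points in line 1 and 26.4 in line 2, and Gm6958, with 18.9 and 24.2. Tuba1b is a tubulin of a family of close copies, and at the length-matched setting its change in line 1 was -6.82 points and that of Aprt 0. When both lines were fitted together with limma, the line as a block, on 3877 genes whose cover averaged 5% or more, 0 genes were called (0%), 1 had an unadjusted p under 0.05, and the lowest adjusted p was 0.824. On the arcsine square root scale 0 were called, 9 had an unadjusted p under 0.05 and the lowest adjusted p was 0.0557, and over the other settings it was 0.527 to 0.900. With 1 residual degree of freedom this test had little room.

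The difference between the KO and WT day effects was tested with limma on 8 libraries and 9205 genes, and 479 genes were higher (5.2%) and 296 lower (3.22%) in the KO lines. Myog, Myh3, Mybph, Cacna1s, Igfbp2 and Mcm10 passed the filter on mean cover through WT, and with a cover of at most 6.87% in any KO library their difference restates the WT change. Myog had a difference of -92.6 points ± 5.49 (SE, adjusted p = 0.00279), with 0% in all 4 KO libraries. Mybph, a myosin-binding protein, had -95.3 ± 6.06, Myh3 -93.1 ± 6.13 and Cacna1s, the calcium channel of excitation, -88.5 ± 5.91, each with an adjusted p of 0.00279. On the other side, Igfbp2, an IGF-binding protein, had 88.5 ± 6.22 and Mcm10, a replication factor, 84.8 ± 5.64. Both were near 0% in the KO lines on both days, and WT went from high to low cover, Igfbp2 from 92.2% and 94.9% to 8.09% and 1.94%. Hmga2, a chromatin protein of proliferating cells, differed by 105 ± 17.7 (adjusted p = 0.0195). It went from 13.8% to 69.0% in line 1 and from 0% to 0.272% in line 2, and in WT from 97.9% and 98.6% to 23.3% and 17.7%, and its change in line 1 was 3.30 points with peak lists cut to matched length. Ly6e, Aprt, Gdf15 and Gm6958, which were named for their KO change, so that their calls are no independent support, were also among the 479, and in these 4 the KO change was the larger part. The mean KO change was 49.8 points for Ly6e, 35.0 for Aprt, 25.8 for Gdf15 and 21.5 for Gm6958, and the WT change was -22.5, -16.9, -21.1 and 0. The number called was 95 without KO line 1 and 2945 without KO line 2, each with its day 0 and day 5 library left out, and 168 without WT day 5 replicate 1 and 236 without WT day 5 replicate 2. In WT alone limma, fitted on all WT libraries, called 1157 genes higher (12.2%) and 1484 lower (15.6%) of 9512 at day 5. With only the 4 libraries of day 0 and day 5 in control medium it called 733 higher and 973 lower of 9782. Of the 1157, 269 gained in line 1, which is 23.2% of them and 8.90% of the genes that gained in line 1. Of the 6871 genes tested and not called in WT, 2477 gained (36.1%), and of all genes 15.7% did.

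**Figure D5:**
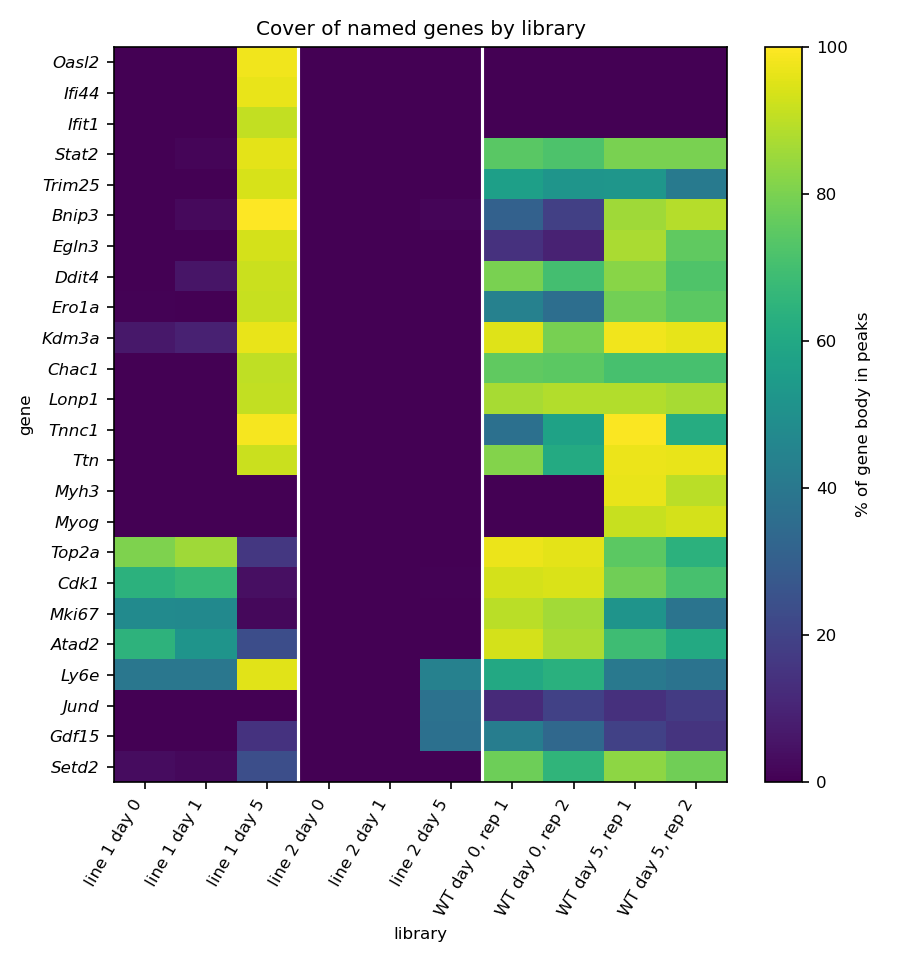
Percent of the gene body inside peaks (colour, 0 to 100%) for 24 named genes (rows) in 10 libraries (columns): KO line 1 and KO line 2 at day 0, day 1 and day 5 in control medium, and WT at day 0 and day 5. Interferon genes are covered in line 1 at day 5 only among these libraries for Oasl2, Ifi44 and Ifit1, Myh3 and Myog in WT at day 5 only, and Jund is above 20% in line 2 at day 5 only.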

How the data were processed

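Chromatin immunoprecipitation of H3K36me3 was sequenced from a single end, per the labels' protocols. The authors deposited 1 list of broad peaks per library, with a score, a fold enrichment (ratio) and the −log10 of p and q for each peak. The build was GRCm38, per the submitters' processing notes. The caller, its control and the read filters are not given in the sources used here. The fold enrichment and −log10 q are the authors' and were used only within a list, to rank or drop peaks. The score was deposited by the authors and was not used.

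Overlapping peaks were merged and laid over 19300 protein-coding RefSeq genes (GRCm38.p6) of at least 2 kb. The gene table has no strand, so strand came from the promoter windows, which matched 15327 of these genes. Libraries were compared by exact permutation and genes by limma 3.58.1 (trend and robust, mean cover of at least 5%, Benjamini-Hochberg adjusted p under 0.05) in R 4.3.3, with Python 3.11.15 for the rest. Interval arithmetic and limma were tested on simulated data. The KO libraries were paired by line. The WT replicate numbers did not pair: correlations of same-numbered deviations were -0.439 to 0.0616 over 10 pairs.

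The members and lists were chosen with earlier results of these data known, and the interferon, hypoxia, ATF4 and cholesterol lists after single genes of this comparison had been seen. Named genes are, per line, the 20 largest gains and 5 largest losses, the 10 largest by the smaller change of the 2 lines, 5 in each direction of the difference of day effects, Setd2, and list members past 20 points. Not all are given, and others were named after their values were seen. The labels do not say that replicates came from separate cultures, so p-values measure only the spread between these libraries.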

Additional observations from a re-analysis of the deposited data

Results flagged for a closer look

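The day effect differed between the KO lines and WT at 775 genes by limma's test of the difference itself (Benjamini-Hochberg adjusted p under 0.05, 9205 genes tested). The count ranged from 95 to 2945 when 1 KO line or 1 WT replicate was left out. Myog, Myh3, Mybph, Cacna1s, Igfbp2 and Mcm10 are among the 775 with a cover of at most 6.87% in any KO library, so for them the difference restates the WT change.

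The percent of peaks that touch a promoter window was higher at day 5 than at day 0 in both KO lines and lower at day 5 in every WT library than in every WT library of day 0, and this difference was not tested. It reached 6.33% in KO line 2 at day 5, from 0.552%, and went from 0.468% to 0.812% in KO line 1. The WT values were 1.287% and 1.199% at day 0 and 1.198% and 1.047% at day 5. At a −log10 q of at least 3 the WT order did not hold, with 2.59% and 1.76% at day 0 and 2.27% and 2.02% at day 5. At that setting KO line 2 went from 0.838% (3 of 358 peaks) to 17.4% (110 of 631) and KO line 1 from 0.847% to 1.81%.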

How the results depend on the processing

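A peak list gives no depth, and each KO value rests on 1 library. The change of covered length, of peak number and of the share of bases in gene bodies kept its sign at a −log10 q of at least 3, without each line, and, where run, with peaks of at least 1 kb. The 3021 genes that gained in line 1 became 734 at 50 points, 1847 at a −log10 q of at least 3, 702 at matched length, and 931 with the restricted day 5 and 41 with the day 1 library in place of day 5, the latter both chosen after seeing the data. The 13 of line 2 became 57, 5 and 0 at 10, 30 and 50 points, 1 at a −log10 q of at least 3, 29 over all protein-coding genes, 0 over genes of at least 10 kb, 1 at matched length and 7 without the first 1 kb of the body (chosen after seeing the data). Of the named changes, 29 of 48 stayed past 20 points at matched length and 17 did not, and Tuba1b (-6.82) and Setd2 (-0.729) in line 1 turned negative. At a −log10 q of at least 3, 30 of 48 stayed past 20 points. The cause of these shifts was not tested. Limma called 0 KO genes at every setting, with 0 to 95 genes at an unadjusted p under 0.05. In WT the 2641 calls became 2457 with a replicate block (the numbers do not pair), 1706 with the 4 libraries alone, and 1759 to 2601 without 1 replicate. The 775 calls of the difference became 988 with no replicate block and 168 to 910 without 1 WT library, and 95 and 2945 without KO line 1 and KO line 2 (2 libraries each).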

Other observations

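Peaks of KO line 2 were unevenly spread over chromosomes on both days. Chromosome 15 held 11.6% of them at day 0 and 11.02% at day 5, with 3.98% of the genome's span, and chromosome 3 held 10.6% and 11.2%, with 6.12% of the span. In KO line 1 chromosome 15 held 7.66% and 5.95%, and chromosome 3 held 5.81% and 6.15%.

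The day 5 library of KO line 1 under methionine restriction also covered interferon genes, with Oasl2 at 97.4% and Ifi44 at 97.7%, and 29 of 53 genes of that list had at least 20% cover there, as did 1636 of all 19300 genes. Hypoxia genes had a median of 72.5% in it, against 84.3% in control medium. Lonp1 had 13.2% and Chac1 16.01%, against 90.8% and 90.6% in control medium. Each value is from 1 library.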
